A study of Mus musculus with 102 samples.

Results

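The CpGs described here were highly methylated in mouse embryonic stem cells (ESCs) and lost most of that methylation once the de novo methyltransferases DNMT3A and DNMT3B had been deleted. They were selected on their measured levels in a capture bisulfite table of 2177608 CpGs. A CpG was selected if it had at least 100 reads in all 8 columns, a level of at least 60% in wild-type cells, a level of at least 70% in Tet triple-knockout (TTKO) cells at day 0, and a TTKO level at day 29 of at most 0.4 times the day 0 level. Of 1560234 CpGs with that coverage, 259288 met both limits on the starting level and are called eligible below. The 7822 selected CpGs made up 3.02% of the eligible CpGs and are called DNMT3-dependent, a name that stands for this rule. Because the wild-type, day 0 and day 29 levels chose them, those levels are given as a description and carry no test.

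All cells were mESCs of the C57BL6/J strain, and all carried Dnmt3a and Dnmt3b alleles with loxP sites around their catalytic exons. The wild-type cells were the parental line, with functional TET proteins and intact Dnmt3a/3b, and were sampled at day 0 without transduction. The TTKO line was made from it by mutating Tet1, Tet2 and Tet3. TTKO cells were sampled without transduction at day 0, with Dnmt3a/3b intact, and at days 4, 8, 10, 13, 17 and 29 after transduction of Cre protein, which removes the catalytic exons. Each of these 8 capture groups had 3 replicates, which the authors joined into a single column. The study's methods give an average of 8% of functional Dnmt3 alleles that escaped deletion. They describe culture on feeder cells before and during transduction, and without them later. The part of feeder cells in the levels was not tested. The capture table has no mock-transduced column, so loss over time without Cre was not measured at these CpGs. A level is an average over the alleles of a population, so complete loss in some cells and partial loss in all cells cannot be told apart.

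DNMT3A and DNMT3B add methyl groups to unmethylated CpGs. DNMT1 copies methylation to the new strand after replication, and a failure of this copying lowers methylation passively with each division. TET proteins oxidise 5-methylcytosine on a route to active removal, so a TTKO cell without DNMT3 is left with DNMT1 as its methyltransferase, and in the model of the study its loss of methylation reflects imperfect copying.

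The sequences around the 5 members with the lowest ratio of day 29 to day 0 that could be shown are printed to let the bases around the CpG be compared, and they were taken from the mm9 genome. They were ranked among the 4246 members with at least 200 reads in every column. Each window runs 20 bases to either side of the CpG, on the strand that has more cytosines in the 2 bases after the CpG, and the capitals mark the CpG with 2 bases on each side.
Usp37 intron, chr1:74506950-74506991, plus strand: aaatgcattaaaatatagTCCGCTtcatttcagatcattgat
Tppp intron, chr13:74163294-74163335, minus strand: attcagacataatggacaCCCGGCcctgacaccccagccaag
Lrp11 intron, chr10:7320847-7320888, plus strand: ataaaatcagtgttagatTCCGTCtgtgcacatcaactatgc
chromosome 2, outside protein-coding genes, chr2:128205353-128205394, minus strand: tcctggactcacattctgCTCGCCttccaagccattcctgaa
Atad2b coding exon, chr12:4948821-4948862, minus strand: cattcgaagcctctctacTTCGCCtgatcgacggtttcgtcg

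For contrast, 4 eligible CpGs that kept their methylation are shown in the same way. They had 70 to 80% methylation at day 0, at least 200 reads in every column and the highest ratios of day 29 to day 0, and were chosen after the values had been seen.
chromosome 2, outside protein-coding genes, chr2:179026857-179026898, minus strand: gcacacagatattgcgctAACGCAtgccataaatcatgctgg
near Krt10, chr11:99264029-99264070, minus strand: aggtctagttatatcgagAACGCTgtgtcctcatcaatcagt
Zeb2 intron, chr2:44896807-44896848, minus strand: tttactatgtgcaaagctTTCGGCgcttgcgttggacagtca
Prkca intron, chr11:108010679-108010720, plus strand: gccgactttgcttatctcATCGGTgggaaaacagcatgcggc

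The CpG with the lowest ratio lies in an intron of Usp37, which encodes a deubiquitinase, at chr1:74506970-74506971. Its level was 71.9% at day 0 (95% Wilson interval 68.1 to 75.4, 580 reads), then 56.3%, 34.3%, 27.0%, 20.0% and 14.4% at days 4, 8, 10, 13 and 17, and 3.4% at day 29 (2.13 to 5.39, 496 reads), against 69.4% in wild-type cells. Every column was lower than the one before it, and the day 29 level was 0.0473 of the day 0 level. The intronic CpG of Tppp, a gene for a tubulin-binding protein, went from 70.5% (64.8 to 75.6) to 5.6% (3.42 to 9.04). A CpG outside protein-coding genes at chr18:27995829-27995830, for which no sequence is shown, started highest of the 6, at 85.8% (81.9 to 89.0), and ended at 7.8% (5.45 to 11.0). The remaining 3, in Lrp11, outside protein-coding genes on chromosome 2 and in a coding exon of Atad2b, started at 73.6%, 71.5% and 71.1% and ended at 6.7%, 7.4% and 7.9%. Atad2b encodes a bromodomain ATPase, and its CpG was less methylated in TTKO cells at day 0 than in wild-type cells (71.1 against 74.3%), with overlapping intervals. These intervals cover the counting of reads only, since the joined columns show no spread between replicates, and PCR copies of a molecule were counted as separate reads unless removed upstream.

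**Figure D1:**
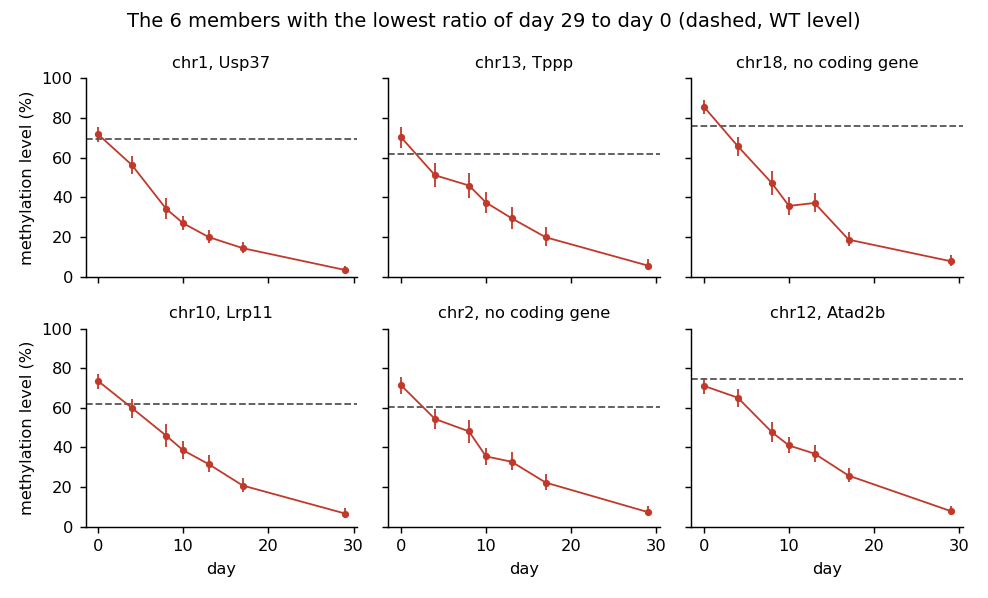
Methylation level in percent against day after Cre in TTKO cells for the 6 members with the lowest ratio of day 29 to day 0, 1 panel per CpG. Points are joined-replicate levels, bars are 95% Wilson intervals, and the dashed line is the wild-type level. All 6 fall below 10% by day 29, from 70.5 to 85.8% at day 0.

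By construction, these CpGs differed from the ones with stable methylation in how far they fell, and they also differed in where they started. Their median level was 74.7% at day 0 (quartiles 72.2 to 77.9), then 70.2%, 62.2%, 56.6%, 51.6% and 41.7% on days 4, 8, 10, 13 and 17, and finally 26.6% on day 29 (23.3 to 28.7). The wild-type median was 65.8%. The decline was gradual, and 5257 of the 7822 CpGs were lower in each later column than in the column before. Few fell close to 0, with 847 at or under 20% and 26 at or under 10% by day 29. Most started near the lower limit: 6719 of them (85.9%) lay between 70 and 80% at day 0, against 32.4% of the other eligible CpGs. Of the eligible CpGs between 70 and 80%, 7.61% were DNMT3-dependent, against 0.734% between 80 and 90% and 0.0279% (6 of 21538) at 90% or more. For this reason many of the features below are also given for the 81556 other eligible CpGs that lay between 70 and 80% at day 0, called the like-level CpGs, whose median was 76.6% at day 0 and 46.9% at day 29. The opposite end was formed by 77081 eligible CpGs that kept at least 0.8 of their day 0 level and are called retaining, with medians of 86.3% at day 0 and 75.2% at day 29. Median read numbers were similar, from 214 to 356 per column for the DNMT3-dependent CpGs and from 214 to 359 for the retaining CpGs.

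**Figure D2:**
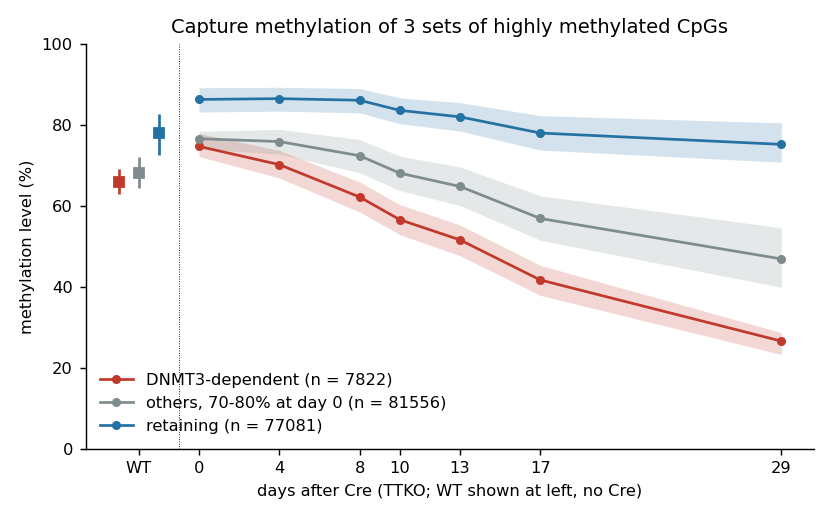
Median methylation level in percent by day after Cre in TTKO cells, with quartiles as bands, for the DNMT3-dependent, like-level and retaining CpGs. Squares at the left show wild-type medians with quartiles. The DNMT3-dependent CpGs lie below the like-level CpGs at day 0 (74.7 against 76.6%), and the gap is wider at day 4 (70.2 against 75.9%) and day 29 (26.6 against 46.9%).

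Near the limit on the ratio, membership separated CpGs with nearly equal ratios. The 3 named on either side also differed in starting level, which the limit itself does not require. The 3 members closest to a ratio of 0.4, in an intron of Ap1b1, near Pdia6 and on chromosome 12 at 454022 bases from the nearest start site of a protein-coding gene, went from 74.5, 72.0 and 72.0% to 29.8, 28.8 and 28.8%. The 3 eligible CpGs just above it, in an intron of Arl3, near Sema7a and near Fabp6, went from 88.7, 83.7 and 82.2% to 35.5, 33.5 and 32.9%. At the Ap1b1 CpG the intervals were 69.8 to 78.7 at day 0 and 25.8 to 34.1 at day 29, which is wider than the distance to the limit.

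Days 4 and 17 were not used in the selection. They lie within the same decline from day 0 to day 29, so a fall between them was nearly given by the rule. The test below describes that fall and lends no separate support to the selection. Of the 7822 DNMT3-dependent CpGs, 7810 (99.8%) were less methylated at day 17 than at day 4 by Fisher's exact test on the pooled reads, two-sided, with Benjamini-Hochberg adjustment over all 1560234 CpGs at 0.05. None was higher, and the other 12 were lower without passing the test. Over all CpGs tested the share called lower was 60.1%, among the other eligible CpGs it was 85.9%, among the like-level CpGs 93.3% and among the retaining CpGs 63.5%. The median fall from day 4 to day 17 was 28.7 percentage points at the DNMT3-dependent CpGs, 18.8 at the like-level CpGs and 8.2 at the retaining CpGs. The ratio of the day 17 to the day 4 level had a median of 0.593 (quartiles 0.548 to 0.634), 0.752 and 0.905 in the same order. Adjusted p for the 6 CpGs with the lowest ratios was between 6.9e-44 and 1.97e-13 in this Fisher's exact test, and these CpGs were picked for the size of their fall. The test compares pooled libraries and leaves out the variation between replicate cultures. A z test with an over-dispersion of 0.0055 was also run and adjusted in the same way. The study fitted that value to its amplicon replicates and used a plain binomial for capture, so it is assumed for these columns. The z test called 7737 of the DNMT3-dependent CpGs (98.9%), against 46.9% of all CpGs tested, 77.9% of the like-level CpGs and 20.7% of the retaining CpGs.

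Rates were fitted to the 7 TTKO columns with the model of the study, in which a CpG gains methylation at a rate kme that fades after Cre and loses it at a rate kde. The selected columns enter this fit, so the rates restate the courses in other units. The median kde was 0.0442 per day at the DNMT3-dependent CpGs (quartiles 0.0402 to 0.0486), which for a constant rate without gain is a half-life of 15.7 days. At the like-level CpGs the median kde was 0.0206 per day and at the retaining CpGs 0.00657 per day. The median kme before deletion followed the same order, at 0.153, 0.0783 and 0.0402 per day. Highly methylated CpGs with a fast loss were thus also fitted with a fast gain, since both rates together set the starting level in this model. All 7822 DNMT3-dependent CpGs gave a 95% range narrower than 2 on the log2 scale for both rates, away from the edges of the grid, against 92.3% of the like-level, 81.4% of all other eligible and 46.2% of the retaining CpGs.

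The bases next to the CpG, which the selection did not use, differed between the groups. The 4 bases CGCC, read on either strand (CGCC or its complement GGCG), were held by 2223 of the 7822 DNMT3-dependent CpGs (28.4%). The same 4 bases were held by 14.8% of the like-level CpGs, 11.7% of all other eligible CpGs and 7.04% of the retaining CpGs, and by 12.2% of the eligible CpGs as a whole. Read the other way, 7.02% of the 31646 eligible CpGs with CGCC were DNMT3-dependent, against 2.46% of the 227642 without it. The motif was singled out after the shares of all contexts had been seen, so these shares carry no test. Of the sequences printed above, the chromosome 2 and Atad2b members hold CGCC, and the Usp37, Tppp and Lrp11 members do not, nor do the 4 retaining CpGs.

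At each of the 2 positions after the CpG, with every CpG read on both strands, the composition shifted in a different way. The second base was a cytosine in 30.0% of readings at the DNMT3-dependent CpGs, against 22.4% at the like-level and 17.8% at the retaining CpGs. It was an adenine in 22.6%, 24.3% and 35.1%, a thymine in 17.6%, 25.8% and 28.4%, and a guanine in 29.8%, 27.5% and 18.7%. The first base was a guanine in 20.6% of readings at the DNMT3-dependent CpGs, against 24.7% and 32.7%. A cytosine in the first place was more common at the DNMT3-dependent than at the like-level CpGs, and about as common as at the retaining CpGs, at 28.8%, 24.0% and 29.3%.

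Grouping the eligible CpGs by the 6 bases centred on the CpG gave 136 contexts, with both strands joined. The share of DNMT3-dependent CpGs ran from 14.3% for CTCGCC (285 of 1996), 13.2% for CACGCC (349 of 2643) and 12.3% for CCCGCC (352 of 2863) down to 0 of 893 for ACCGGT, 0.301% for ACCGGC (6 of 1995) and 0.325% for ACCGCG (2 of 616). The palindrome GGCGCC, which holds CGCC on both strands, reached 10.7% (83 of 775). Of the 10 contexts with the largest shares 7 held CGCC, and 15 of the 16 contexts with CGCC lay above the overall share of 3.02%, as did 38 of the 120 contexts without it. The largest share without CGCC was 8.76%, for CACGTC (158 of 1804), followed by 8.22% for CTCGTC and 7.59% for CACGAG. These contexts hold a cytosine 2 bases before the CpG, but so do contexts under the overall share, such as CACGCA (2.85%) and CACGCG (0.564%). Over all eligible CpGs of a context, members or not, the median ratio of day 17 to day 4 was 0.725 for CTCGCC, 0.726 for CACGCC and 0.735 for CCCGCC, and 0.881 for ACCGGT, 0.866 for ACCGGC and 0.877 for ACCGCG. The fall from day 4 to day 17 was thus larger in the contexts rich in DNMT3-dependent CpGs. Both columns lie on the decline that defined the members, and members enter these medians, so this order is no separate support. Starting levels differed as well, with a median at day 0 of 78.2% for CTCGCC and 85.7% for ACCGGT. Among the eligible CpGs between 70 and 80% at day 0, the shares of DNMT3-dependent CpGs were 20.7% for CTCGCC and 19.6% for CACGCC, and 0 of 137 for ACCGGT, 0.915% for ACCGGC and 1.23% for ACCGCG, so the order of these contexts held there.

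**Figure D3:**
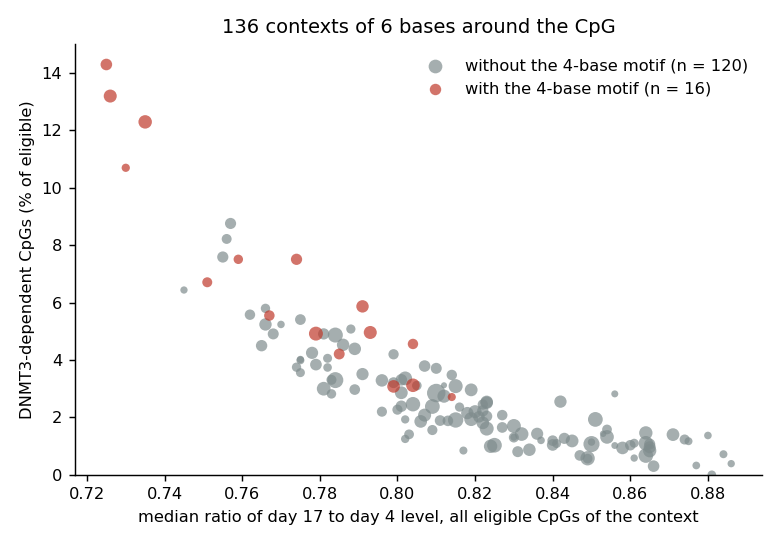
Share of DNMT3-dependent CpGs among eligible CpGs, in percent, against the median ratio of the day 17 to the day 4 level over all eligible CpGs of each of 136 contexts of 6 bases around the CpG. Point area grows with the number of eligible CpGs, and red points hold the motif CGCC on either strand. The 4 contexts above 10% all hold the motif and have median ratios from 0.725 to 0.735.

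Bases further out also went with the share. Among CpGs with CGCC on 1 strand only, 12.2% were DNMT3-dependent where a cytosine stood 2 bases before the motif (1006 of 8239), against 4.38% for adenine, 4.82% for thymine and 6.49% for guanine. Directly before the motif the shares were 8.68% for thymine, 8.43% for adenine, 6.75% for cytosine and 3.91% for guanine, and between 70 and 80% at day 0 they were 15.1%, 14.4%, 14.1% and 9.02%. Directly after it, cytosine gave 8.89% and guanine 2.48% (62 of 2501), which is close to the share of CpGs that lack the motif. Between 70 and 80% at day 0, cytosine 2 bases before the motif gave 19.4% and adenine 8.71%, and cytosine and guanine after it gave 16.0% and 7.66%. Guanine at that place itself completes a second CpG, which is counted among the other CpGs within 100 bases. Their median was 5 with guanine there, against 3 for each other base.

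The difference by motif was present within every stratum examined. Between 70 and 80% at day 0, 13.7% of the CpGs with CGCC were DNMT3-dependent and 6.48% of those without. Between 80 and 90% the shares were 1.96% and 0.586%. Where no other CpG lay within 50 bases they were 9.47% and 3.74%, in protein-coding gene bodies 7.12% and 2.48%, and outside genes of any kind 7.04% and 2.46%. On each of the 20 chromosomes with a DNMT3-dependent CpG the share was larger with the motif, from 4.62 against 1.62% on chromosome 13 to 9.25 against 2.75% on chromosome 4. Chromosome Y had 78 eligible CpGs and none that was DNMT3-dependent. Without regard to the motif, the share was largest on chromosomes X (4.62%, 104 of 2249) and 15 (4.25%, 485 of 11418) and smallest on chromosome 13 (1.97%, 257 of 13037).

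**Figure D4:**
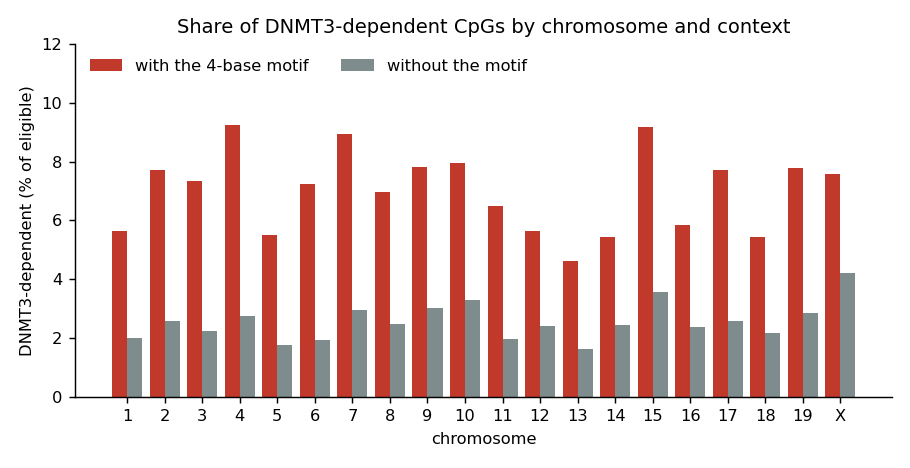
Share of DNMT3-dependent CpGs among eligible CpGs, in percent, on each of the 20 chromosomes with any, for CpGs with the motif CGCC on either strand (red) and without it (grey). The red bar is the taller of each pair, from 4.62% on chromosome 13 to 9.25% on chromosome 4.

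DNMT3-dependent CpGs lay nearer to lowly methylated CpGs than the other highly methylated CpGs did. In ESCs, CpG-dense promoters and active regulatory regions form lowly methylated stretches within a methylated background. A CpG of at most 10% methylation in wild-type cells lay within 500 bases of 18.4% of the DNMT3-dependent CpGs (1441), against 9.58% of the like-level, 10.3% of the other eligible and 7.95% of the retaining CpGs. The median distance to the nearest such CpG was 2924 bases for the DNMT3-dependent CpGs, 7549 for the like-level and 12673 for the retaining CpGs. The share of DNMT3-dependent CpGs was between 4.92 and 5.96% in every distance class up to 1000 bases and fell to 4.42%, 3.67%, 2.47% and 1.52% in the classes beyond, the last being over 20000 bases. Between 70 and 80% at day 0 it was 10.9 to 15.2% in the classes up to 1000 bases and 4.14% beyond 20000. The median ratio of day 17 to day 4 over all eligible CpGs was lowest between 501 and 1000 bases, at 0.782, and highest beyond 20000, at 0.841. The share of CpGs with CGCC hardly varied over these classes, from 11.5 to 12.7%, and the share of DNMT3-dependent CpGs was larger with the motif in each of them.

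Start sites of protein-coding genes showed a different profile. The DNMT3-dependent CpGs had a median distance of 16916 bases to the nearest start site, against 26472 for the like-level and 39646 for the retaining CpGs. Their share was highest between 1001 and 2000 bases from a start site, at 4.53% (584 of 12886), and lower on both sides, with 2.03% (109 of 5363) up to 500 bases and 1.59% (762 of 47798) beyond 100000 bases. Between 70 and 80% at day 0 the same shares were 10.1%, 5.53% and 4.46%. Only 287 of the 7822 (3.67%) lay within 1000 bases of a start site, a share close to the 4.07% of the like-level CpGs.

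**Figure D5:**
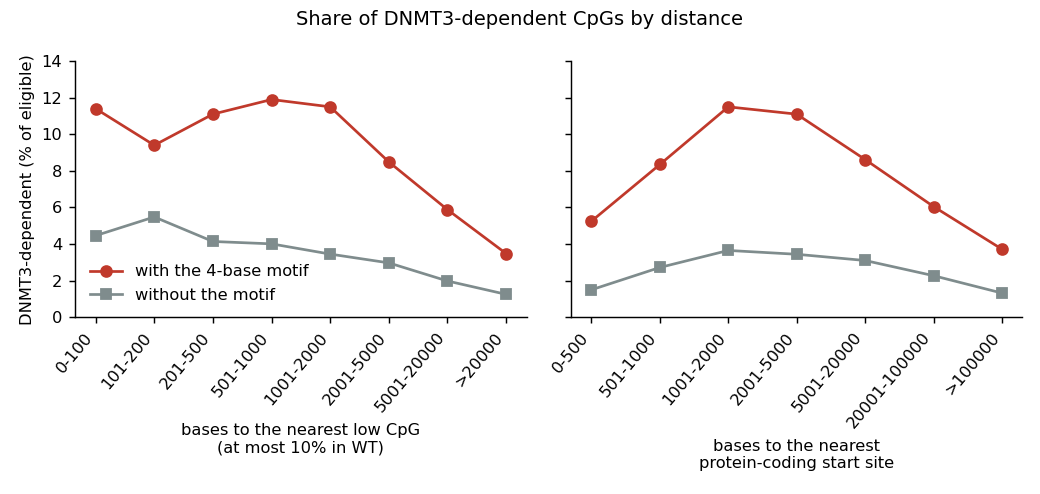
Share of DNMT3-dependent CpGs among eligible CpGs, in percent, by distance to the nearest CpG of at most 10% methylation in wild-type cells (left) and to the nearest start site of a protein-coding gene (right), for CpGs with the motif CGCC (red) and without it (grey). At start sites the shares are highest between 1001 and 2000 bases (11.5 and 3.65%) and lower up to 500 bases (5.25 and 1.5%).

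Gene bodies held a similar share of the DNMT3-dependent CpGs as of other highly methylated CpGs. Bodies of protein-coding genes held 58.1% of them (4544), 55.6% of the like-level and 54.4% of the retaining CpGs. Coding exons held 6.52%, 5.13% and 9.03%, and untranslated regions 4.09%, 2.81% and 2.78%. CpG density was lower than among the retaining CpGs, with a median of 2 other CpGs within 100 bases against 3 and a median of 30 bases to the nearest CpG against 14, but the like-level CpGs had nearly the same values, 2 CpGs and 32 bases. Over all eligible CpGs the share of DNMT3-dependent ones fell from 4.55% with no other CpG within 100 bases to 1.17% with 10 or more. Between 70 and 80% at day 0 the same shares were 8.12% and 6.75%, so the gradient was shallower among CpGs of like starting level.

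DNMT3-dependent CpGs were mostly single. Where the nearest eligible CpG lay within 10 bases, it was DNMT3-dependent for 26.7% of them (232 of 868), and this share was 12.5% at 11 to 50 bases, 9.08% at 51 to 100 and 7.2% at 101 to 250. Further out it did not go on falling, with 10.1% at 251 to 500 bases, 4.15% (10 of 241) at 501 to 1000 and 8.81% beyond. For other eligible CpGs the nearest one was DNMT3-dependent in 0.978%, 1.83%, 2.91% and 3.41% of cases over the first 4 of these distance classes, and in 4.95%, 5.32% and 4.8% over the last 3, so that between 501 and 1000 bases the share was the lower one for the DNMT3-dependent CpGs. Where the nearest eligible CpG within 10 bases was not itself DNMT3-dependent, its median ratio of day 29 to day 0 was 0.567 next to a DNMT3-dependent CpG and 0.782 next to another. CpGs this close are read on the same fragments and are not independent. The other eligible CpGs here were not limited to those of like starting level, so a difference in starting level enters these contrasts. Runs of consecutive eligible CpGs that were all DNMT3-dependent, with no gap over 500 bases, numbered 7319. Of these, 6888 held a single CpG, 369 held 2, 55 held 3 and 7 held more, and 934 CpGs (11.9%) were in runs of at least 2.

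The runs of 6 and 5, and the run with the lowest mean ratio (0.29) among the 5 runs of 4, are shown because their sequences differ in kind. Capitals mark the DNMT3-dependent CpGs, and the plus strand of mm9 is given with 15 bases on each side.
Run of 6 near Atg4c, chr4:98849869-98849914: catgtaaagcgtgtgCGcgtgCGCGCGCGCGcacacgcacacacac
Run of 5 in Dgkz, chr2:91782796-91782938: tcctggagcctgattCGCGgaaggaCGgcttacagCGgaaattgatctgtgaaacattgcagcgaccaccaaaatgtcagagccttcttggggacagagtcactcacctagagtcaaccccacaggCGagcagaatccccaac
Run of 4 near Gm17497, chr16:38443624-38443673: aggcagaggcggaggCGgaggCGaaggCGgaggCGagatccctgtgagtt

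The run near Atg4c, a gene for an autophagy protease, covers 16 bases of alternating pyrimidine and purine 10741 bases from the nearest start site. Its mean level of 76.8% before Cre fell through 66.5% (day 4) and 41.8% (day 17) to 23.2% (day 29), and the wild-type mean was 77.6%. The 8 other covered CpGs within 1500 bases had medians of 50% before Cre and 9.3% on day 29, and 2 of them were at most 10% in wild-type cells. The run of 4 on chromosome 16 lies in a repeat of GGCGGA and related units, holds CGCC on the minus strand at all 4 CpGs, and fell early, from 77.5% to 53.6% at day 4 and 22.7% at day 29. Both lie in simple repeats, where short bisulfite reads can be placed wrongly, and the placement of reads was not tested. Repeat content was not determined for the other DNMT3-dependent CpGs or for the contexts with CGCC, and its part in their shares was not tested. The run of 5 has its first CpG in a coding exon of Dgkz, which encodes a diacylglycerol kinase, and is not a simple repeat. Its mean was 74.5% before Cre, 70.9% and 37.9% on days 4 and 17, and 21.3% at the end, against 64.1% in the parental line, with at least 297 reads at each CpG in every column. The 10 other covered CpGs within 1500 bases of it had medians of 78.0% at day 0 and 37.5% at day 29, so the CpGs around the run fell as well. The other 4 runs of 4 lay within genes and started from 72.3 to 85.9% in Dda1, a gene for a ubiquitin ligase component, 71.3 to 75.3% in D17H6S56E-3, 73.7 to 83.3% in Mei1, a gene of meiotic recombination, and 76.1 to 84.4% in 4930555I21Rik. The eighth run, taken from 55 runs of 3 CpGs for its mean ratio of 0.203, lay in an intron of 9830001H06Rik and went from 73.0% to 14.8% on average.

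Protein-coding genes held DNMT3-dependent CpGs in small numbers. Of 11795 genes with an eligible CpG, 3171 held at least 1 DNMT3-dependent CpG and 48 held at least 5. Of the 2159 genes with at least 20 eligible CpGs, 1042 held none, and the median share was 1.1%. The largest share was that of 4930555I21Rik, at 8 of 20 eligible CpGs (40.0%), all intronic, between 75.3 and 86.9% at day 0 and between 23.7 and 33.2% at day 29. The median ratio of day 29 to day 0 of its other eligible CpGs was 0.598, against 0.721 for all other eligible CpGs. Dtnb, which encodes dystrobrevin beta, followed with 6 of 20 (30.0%), all intronic and spread over the gene, with day 0 levels from 72.5 to 75.2% and day 29 levels from 21.5 to 28.9%. Ppp2r5a, a regulatory subunit of protein phosphatase 2A, and Prdm11, a PR domain gene, each had 6 of 25. Shares from 18.2 to 23.8% were found in Hsf2bp, a binding partner of a heat shock factor, Nuak1, an AMPK-related kinase, Cacna1a, a calcium channel pore subunit, Eng, a TGF-beta co-receptor, Fmnl2, a formin, Fbxo21, an F-box protein, and Clip2, a microtubule linker. Genes with the largest shares were chosen for them from many with few CpGs, and with 20 eligible CpGs each further DNMT3-dependent CpG moves a share by 5 points.

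By number, Rnf220, a ubiquitin ligase gene, held 10 of 69 (14.5%), all intronic, with day 29 levels from 12.5 to 33.2%, and 5 of the 10 had CGCC. Pde4d, a cAMP phosphodiesterase gene, held 9 of 170, Nedd4l, another ubiquitin ligase gene, 9 of 203, Cacna1a 8 of 38 and Arhgap26 8 of 245. The gene models with higher numbers were Gm20388 with 57 of 1666 and Fgfr2 with 14 of 595, and in the annotation used they span 4434882 and 3009069 bases and take in other genes.

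The gene lists gave small counts against the overall 3.02%. Genes of the DNA methylation machinery held 7 DNMT3-dependent CpGs among 94 eligible ones (7.45%), in 3 of 8 genes with eligible CpGs. In Dnmt3l, the catalytically inactive cofactor of the de novo enzymes, 2 of 5 fell far, from 75.4 and 75.8% at day 0 to 13.9 and 11.1% at day 29. In Dnmt3a, 4 of 29 went from between 71.1 and 77.6% to between 21.2 and 27.6%, all in introns, with 239 to 331 reads at day 29 and 243 to 380 at day 0. In Tet2, the only eligible CpG, in an untranslated region, went from 76.9% to 27.2%. Genes used in all cells, abundantly transcribed, held 1 of 13, in Ldha, the lactate dehydrogenase gene. Germline genes silenced by methylation held 1 of 75, in Mael, a gene of the piRNA pathway. Imprinted genes held 2 of 155, in Igf2 and Inpp5f, developmental regulators held 1 of 121, in Meis1, and pluripotency genes held 1 of 33, in Esrrb. The differences between these shares rest on few CpGs and were not tested.

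Amplicon bisulfite sequencing of the same lines kept its 3 replicates apart, but none of its 405 CpGs was DNMT3-dependent by the rule, and the nearest member was 2867 bases away. Of the 259 amplicon CpGs that the capture table also held, 3 were eligible. There were 2 further CpGs that met the TTKO limits but fell short in wild-type cells, which gives a view of the replicate spread in such a course. At chr14:20659412 capture gave 77.0% before Cre and 28.7% on day 29, a ratio of 0.373, and 58.3% in the parental line. In the amplicons it was 87.7, 78.5 and 73.8% in the 3 replicates at day 0, 47.8, 35.4 and 41.6% at day 29 after Cre, and 79.6 and 77.6% in the mock-transduced replicates with enough reads at day 29. The Cre replicates (41.6% ± 6.23, SD, n = 3) lay below both mock replicates, with a two-sided exact permutation p = 0.2. With 3 against 2 replicates such a test cannot reach 0.05. At chr10:94717330, with 6.5% in wild-type cells, the Cre replicates were 41.4, 35.4 and 46.9% and the mock replicates 80.2 and 77.0%, with the same p of this exact test. The amplicon ratios of day 29 to day 0 were 0.520 and 0.506, above the capture ratios of 0.373 and 0.391 that had placed these CpGs under the limit. Over the 41 CpGs with at least 50% at day 0 and enough reads in both assays, the amplicon ratio was higher by 0.048 ± 0.0711 (SD over CpGs). Among the 87 amplicon CpGs that met both starting limits on their own means, the lowest ratio was 0.464.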

How the data were processed

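SureSelect capture libraries were aligned by the authors to mm9 with Rbowtie in QuasR and called with qMeth, per the study's methods. The deposited capture table holds counts of reads (coverage) and levels in percent per CpG, with the 3 replicates of each group joined by the authors. Amplicon levels were deposited as a fraction per replicate, with no level under 100 reads. Deposited rates were not used. Median coverage of the CpGs with at least 100 reads was 198 to 346 reads per column. Members, gene lists and contexts were chosen with earlier results of these data known.

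Methylated reads were recovered as level times coverage, rounded. Day 4 and day 17 were compared with Fisher's exact test, chosen after it was seen that no amplicon CpG was a member. The replicated amplicon tests planned bear on no member and were not run. At the amplicon CpGs shown, which are not members, Cre and mock replicates of day 29 were compared by exact permutation. Rates were fitted on a grid of 80 rates per axis up to 2 per day, with kE 0.5, 8% undeleted alleles, an error of 0.0025 and a binomial likelihood. Both were tested on simulated data. Genes were those of GENCODE M1 on mm9. Named were the 6 members with the lowest ratio at 200 reads or more (none of at least 98% at day 0 existed), the 3 on either side of the limit, the 8 longest runs, and, of genes with at least 20 eligible CpGs, the 12 with the largest share (1 of them is not reported here) and the 8 with most members. Python 3 libraries numpy, scipy and numba were used. Coverage, ratio, wild-type limits, windows and model settings were varied.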

Additional observations from a re-analysis of the deposited data

How the results depend on the processing

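The number of DNMT3-dependent CpGs follows the limits set. It was 4246 at 200 reads, 1550 and 27012 at ratios of 0.3 and 0.5, 13871 and 1634 at wild-type minima of 50 and 70%, 1820 where Wilson bounds had to meet the limit, and 21736 with 8% undeleted alleles taken off. The share in gene bodies was 59.7% at 200 reads and 61.0% with all biotypes. The median of other CpGs was 1 within 50 bases and 6 within 250, and the nearest eligible CpG was a member in 16.4% within 50 bases and 12.8% within 250. The share with CGCC was 27.0% at 200 reads, 33.5% and 23.6% at ratios of 0.3 and 0.5, and 22.4% with no other CpG within 50 bases. Guanine as first base was 21.3% at 50 reads and 19.9% at 200, and at 200 reads the second base was adenine in 23.4%, cytosine in 28.8% and thymine in 18.3%. Within 500 bases of a low CpG lay 17.5% at 50 reads. Median kde was 0.0402 without undeleted alleles or with kE of 1, and median kme 0.126 and 0.139. Between days 8 and 13, 3290 members (42.1%) were called lower, against 13.9% of all CpGs and 24.7% of the like-level CpGs. Between days 4 and 17 at 200 reads it was all 4246 members left, against 70.6% of all and 98.3% of the like-level CpGs. Of 65 alternatives, 36 stayed within 1.5 times a count, within the 95% Wilson interval of a share or at the same value.

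The alternatives on CGCC, on low CpGs and on the day 4 to day 17 test were chosen after seeing the data. No paired analysis was possible because the capture columns join the replicates and carry no replicate number. For the same reason no replicate could be left out. The planned amplicon alternatives (leaving out replicates, replicate block, pseudocount, dispersion, limma, coverage, day 17 and day 0) were not run, since no amplicon CpG was a member. At 100 reads the counting error alone can carry a CpG across the ratio limit.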
